A study of Mus musculus with 12 samples.

Results

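Of the 12 mouse vein libraries of this study, 4 held little messenger RNA of Dbp, a transcription factor gene driven directly by the circadian clock, and 8 held much. The 4 were chosen by that measured value: a library counted as low-Dbp when Dbp was below 30 CPM (counts per 1000000 counts over all genes). Sham 4, sham 5, sham 6 and AVF-CKD 6 met the rule at 21.2, 7.47, 6.25 and 7.58 CPM (922, 334, 296 and 394 reads), and the other 8 libraries held 77.4 to 106 CPM. Just inside the threshold was sham 4 at 21.2 CPM, and just outside it was AVF-CKD 4 at 77.4 CPM. Because the libraries were selected on Dbp, the low-against-high differences are given as descriptions, with standard errors and no p-value for any gene. Where genes are sorted by a threshold on an adjusted p, the threshold serves to set a difference against the spread between libraries and is not a test of the split. The sham libraries were jugular vein taken 7 days after sham surgery, and the AVF-CKD libraries were the venous limb of the AVF taken 7 days after AVF-CKD surgery. The abbreviations are not explained in the labels; they are taken here to mean arteriovenous fistula and chronic kidney disease. The labels name no strain, genotype, age or sex, no agent given to the mice, no hour of harvest and no pooling. Whether every library is from its own mouse is not said either, so p-values measure only the spread between these samples, which may be technical.

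The circadian clock is a feedback loop of transcription that runs in nearly every cell, vessel wall included. ARNTL (also called BMAL1) pairs with CLOCK or NPAS2 and switches on the Per, Cry, Nr1d and Dbp genes; PER and CRY proteins then block that pair, and the NR1D (REV-ERB) repressors shut off Arntl and Npas2. As a result, Arntl and Npas2 messages peak when Dbp, Nr1d1 and Per3 messages are near their trough. DBP, TEF and HLF are PAR bZIP activators that pass the rhythm on to other genes, and NFIL3 represses through the same sites.

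Low-Dbp libraries were 3 of the 6 sham and 1 of the 6 AVF-CKD libraries, a difference that did not pass a two-sided Fisher's exact test (p = 0.545). They were unevenly spread over the numbers in the sample titles: 0 of the 6 libraries numbered 1 to 3 and 4 of the 6 numbered 4 to 6 were low. Within sham the split therefore cannot be told apart from whatever the numbers stand for. Summed gene counts were 43445591 to 52003341 in the low-Dbp and 38653830 to 60142016 in the high-Dbp libraries. The 2 gene models at a ribosomal DNA copy took 3.89% to 6.22% of the counts in the low-Dbp and 4.18% to 7.46% in the high-Dbp libraries. Vein wall markers were present in all 12, with the endothelial gene Pecam1 at 297 to 518 CPM and the smooth muscle actin gene Acta2 at 473 to 1144 CPM. The skeletal muscle actin gene Acta1 ranged from 99.9 CPM in sham 3 to 2630 CPM in AVF-CKD 2, so muscle RNA varied within both classes. Sham 6 held far more of the fat cell list than any other sham library (mean log2 CPM 8.28 against 5.39 to 6.12). From here on, CPM values are scaled by the trimmed mean of M-values (TMM).

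Promoter sequences are shown for 4 clock genes because their levels differed between the classes and because their starts carry motifs that the clock factors read. The 250 bases before each RefSeq start (build GRCm38.p6) were searched on both strands for the E-box CACGTG, read by ARNTL with CLOCK or NPAS2, for the D-box TTATGTAA or TTACGTAA, read by the PAR bZIP factors and NFIL3, and for the core TAGGTCA or TGGGTCA, read by ROR and REV-ERB proteins. None of these motifs contains another. Of 20 core clock genes tested, 17 had a sequence in the RefSeq table. The E-box stood in 5 of the 17 (Bhlhe41, Ciart, Cry1, Per1 and Tef) and in 6.86% of all 27025 genes with a window. The D-box stood in 1 of the 17, Per3, and in 1.10% of all genes, and the ROR core in 1 of the 17, Nfil3, and in 6.15% of all genes. A match describes letters and is not a measured binding site. Of the 250 bases, 250 for Tef, 138 for Bhlhe41, 23 for Ciart and 0 for Per3 lie inside the gene model of the deposited table. Capitals mark the motif. Per3 lies at chr4:151044666-151044915 on the minus strand with 2 D-boxes, Ciart at chr3:95882252-95882478 on the minus strand with 3 E-boxes, and for Tef (chr15:81802534-81802563, plus strand) and Bhlhe41 (chr6:145865556-145865585, minus strand) only the 30 bases around the E-box are shown.
Per3: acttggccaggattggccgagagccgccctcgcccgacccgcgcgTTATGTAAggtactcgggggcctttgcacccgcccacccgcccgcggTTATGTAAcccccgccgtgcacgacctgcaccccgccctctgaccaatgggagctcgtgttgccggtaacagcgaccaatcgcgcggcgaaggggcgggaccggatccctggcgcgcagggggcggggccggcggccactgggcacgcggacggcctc
Ciart: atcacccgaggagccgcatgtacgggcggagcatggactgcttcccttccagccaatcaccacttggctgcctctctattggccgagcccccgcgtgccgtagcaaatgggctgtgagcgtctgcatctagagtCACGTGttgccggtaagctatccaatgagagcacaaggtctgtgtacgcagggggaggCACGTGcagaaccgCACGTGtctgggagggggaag
Tef: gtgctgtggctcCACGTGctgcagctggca
Bhlhe41: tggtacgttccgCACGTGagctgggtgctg

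Across the 18965 genes expressed in these libraries, 49 (0.258%) passed an adjusted p of 0.05 for low against high Dbp with the group as a term in edgeR's quasi-likelihood fit, 23 higher (0.121%) and 26 lower (0.137%) in the low-Dbp libraries. The median difference over all genes was 0 on the log2 scale. Of the 20 core clock genes tested, 10 were among the 49, or 9 of the 19 other than Dbp: Arntl and Npas2 on the higher side, and Per2, Per3, Nr1d2, Ciart, Bhlhe41, Dbp, Tef and Hlf on the lower side. A simpler count was of genes whose 4 low-Dbp values all lay above, or all below, the 8 high-Dbp values, which held for 119 (0.627%) and 168 (0.886%) of all genes. Among the core clock genes it held for 13 of 20, or for 12 of the 19 other than Dbp, whose separation the rule fixed, with Arntl, Clock, Npas2 and Nfil3 above and Per2, Per3, Nr1d1, Nr1d2, Ciart, Bhlhe41, Dbp, Tef and Hlf below. In bulk tissue, fewer cells of a type and less RNA per cell cannot be told apart.

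**Figure D1:**
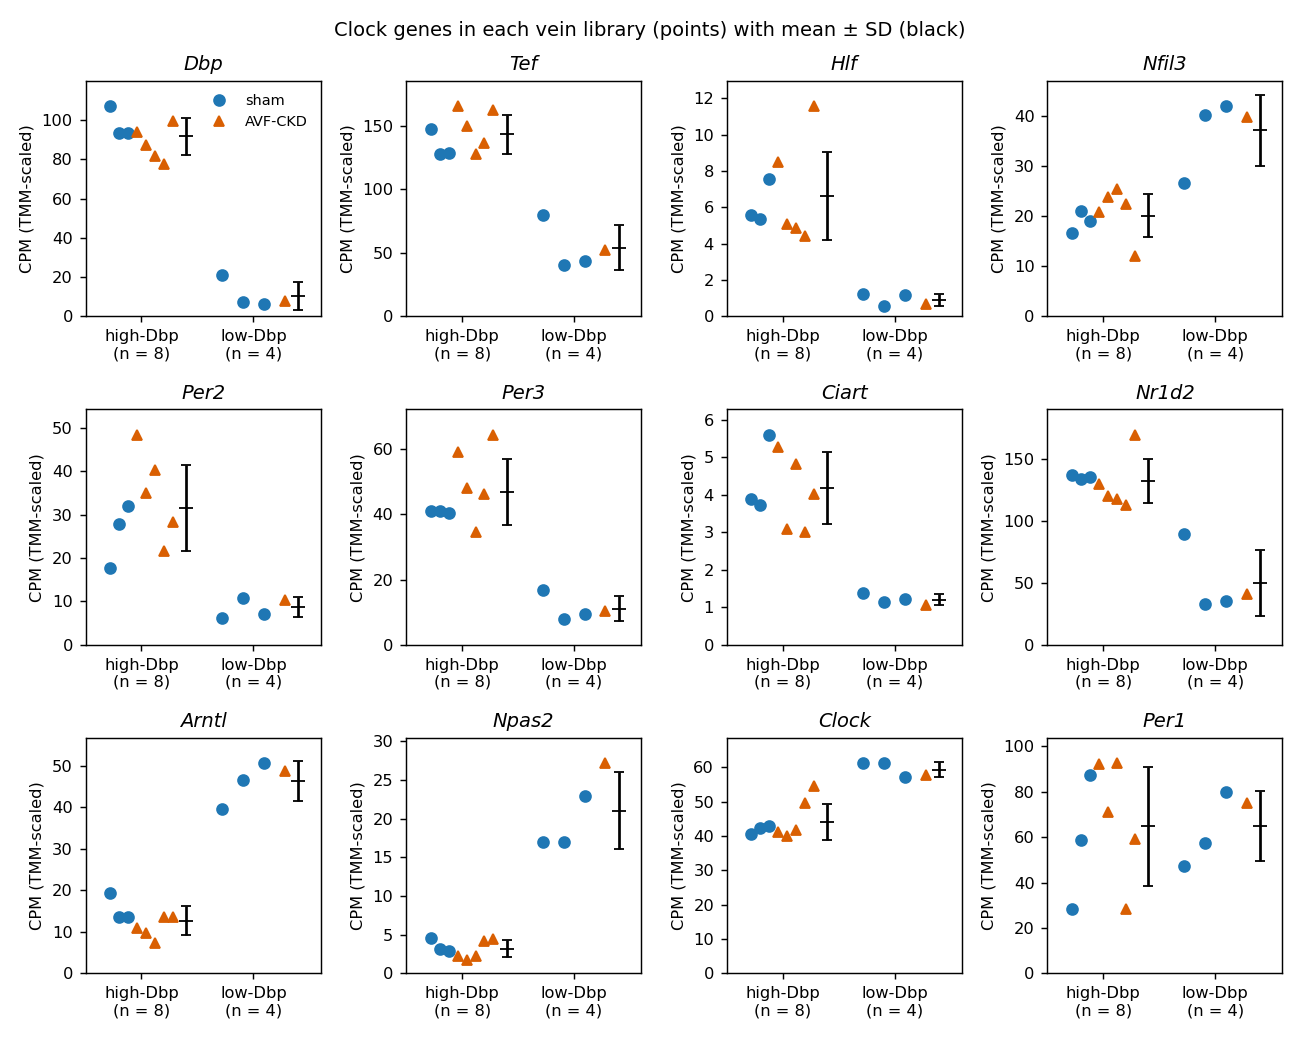
Level of 12 clock genes in every library, in CPM on a linear axis from 0, with circles for sham, triangles for AVF-CKD, and mean ± SD in black (8 high-Dbp and 4 low-Dbp libraries). Dbp, Tef, Hlf, Per2, Per3, Ciart and Nr1d2 are lower in the low-Dbp libraries, Arntl, Npas2, Clock and Nfil3 are higher, and Per1 overlaps.

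The activators of the loop were higher where Dbp was low. Arntl (ENSMUSG00000055116, chr7:113207465-113314122), the central activator, stood at 39.5, 46.6, 50.6 and 48.6 CPM in sham 4, sham 5, sham 6 and AVF-CKD 6. In the 8 high-Dbp libraries it was between 7.196 and 19.3 CPM with a median of 13.5. The classes were far apart, with a log2 difference (low minus high, group as a term) of 1.78 ± 0.18 (SE), a 3.43-fold higher level. Npas2 (chr1:39193731-39363236), the partner that can stand in for CLOCK, held 17.01, 16.9, 23.0 and 27.2 CPM in the same order of low-Dbp libraries. The high-Dbp libraries held 1.78 to 4.54 CPM with a median of 2.97. Npas2 had the largest higher difference of any core clock gene at 2.73 ± 0.26 on the log2 scale, or 6.63-fold.

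Clock (chr5:76212177-76304548), which encodes the usual partner of ARNTL and cycles little in most tissues, differed less. Its levels were 61.2, 61.2, 57.3 and 57.7 CPM in the low-Dbp libraries and 40.0 to 54.6 CPM, median 42.1, in the high-Dbp libraries. The ranges did not overlap, and the log2 difference of 0.45 ± 0.09 was not among the 49. Arntl2, the paralogue of Arntl, and Rora, a nuclear receptor gene whose product switches Arntl on, overlapped between the classes, with log2 differences of 0.07 ± 0.14 and -0.02 ± 0.17. Rorb, a further ROR gene, had at most 15 counts in any library and was not tested.

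Among the repressors, 5 of 10 were on the lower side and past the threshold. Per2 (chr1:91415982-91459324) held 6.30, 10.9, 7.16 and 10.3 CPM in the low-Dbp libraries and 17.7 to 48.4 CPM, median 30.2, in the high-Dbp ones. Per3 (chr4:151003652-151044665), whose window with the pair of D-boxes is printed above, held 16.7, 7.98, 9.41 and 10.3 CPM against 34.5 to 64.3 CPM, median 43.6. These differences were -1.70 ± 0.25 and -2.00 ± 0.23 on the log2 scale. Both genes encode period proteins, which hold back the ARNTL pair, and neither showed any overlap between the classes.

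Per1, the third period gene, did not follow them. Its levels in the low-Dbp libraries were 47.2, 57.5, 80.0 and 75.0 CPM, inside the range of 28.4 to 92.6 CPM of the high-Dbp libraries, and its log2 difference was 0.10 ± 0.34. The lowest values were those of AVF-CKD 4 and sham 1, at 28.4 and 28.5 CPM, both high-Dbp. Per1 is also induced quickly by glucocorticoids and by cyclic AMP. The cryptochromes, the partners of the period proteins, overlapped as well, with Cry1 at 0.21 ± 0.19 and Cry2 at -0.17 ± 0.17.

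The REV-ERB genes were lower. Nr1d1 (chr11:98767932-98775333), which encodes REV-ERB alpha, held 70.7, 32.9, 45.1 and 40.8 CPM in the low-Dbp libraries and 72.1 to 169 CPM, median 103, in the others. Sham 4 at 70.7 CPM and AVF-CKD 1 at 72.1 CPM nearly met, and the difference of -1.30 ± 0.26 was not among the 49. Nr1d2 (chr14:18204054-18239127), its paralogue, held 89.2, 33.1, 35.7 and 41.2 CPM against 112 to 169 CPM, median 132, a difference of -1.46 ± 0.26 that was among them.

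Ciart, a repressor whose printed window holds 3 E-boxes, was low and even in all 4 low-Dbp libraries, at 1.39, 1.15, 1.22 and 1.07 CPM. The high-Dbp libraries held 3.08 to 5.60 CPM with a median of 3.95, giving a log2 difference of -1.85 ± 0.21. Bhlhe41, which encodes the E-box repressor DEC2, held 17.8, 18.2, 14.3 and 17.6 CPM against 25.7 to 38.4 CPM, median 32.0, with a difference of -0.94 ± 0.13. Bhlhe41 shares 19.0% of its exonic bases with a model on the other strand, and this library kit does not mark strand. Its paralogue Bhlhe40 overlapped at -0.24 ± 0.11, and sham 6 held its lowest value, 58.9 CPM.

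Dbp and Hlf, 2 of the PAR bZIP genes, showed the widest differences of the core clock genes. Dbp itself (ENSMUSG00000059824, chr7:45705088-45710155), on which the libraries were chosen, held 21.4, 7.25, 6.15 and 7.65 CPM after scaling against 77.7 to 107 CPM, median 93.4, a 9.39-fold lower level. Tef (chr15:81802421-81826861) held 79.4, 40.5, 43.6 and 52.4 CPM against 128 to 165 CPM, median 142. Hlf (chr11:90336536-90390895) held 1.25, 0.586, 1.16 and 0.660 CPM against 4.44 to 11.6 CPM, median 5.47. All 3 were lower without overlap, with log2 differences of -3.23 ± 0.33 for Dbp, -1.37 ± 0.18 for Tef and -2.86 ± 0.36 for Hlf. Nfil3 (chr13:52967209-52981073), the repressor at the D-box, went the other way, at 26.7, 40.1, 41.9 and 39.8 CPM against 11.97 to 25.4 CPM, median 20.9. Its difference of 0.94 ± 0.19 was not among the 49, and the classes came closest in sham 4 at 26.7 CPM and AVF-CKD 3 at 25.4 CPM.

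On the length-corrected scale of the deposited table (RPKM, which divides reads by gene length and library size), the levels of these genes can be set against each other. The authors' RPKM of Dbp was 1.82 to 6.18 in the low-Dbp and 22.5 to 31.2 in the high-Dbp libraries. That of Arntl was 11.6 to 15.2 and 2.12 to 5.71, that of Npas2 3.03 to 4.79 and 0.321 to 0.815, and that of Tef 4.52 to 8.61 and 13.6 to 18.7. Per length, Arntl therefore stood above Dbp in each low-Dbp library and below it in each high-Dbp library. The libraries were chosen on Dbp, so this crossing is partly fixed by that choice.

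**Figure D2:**
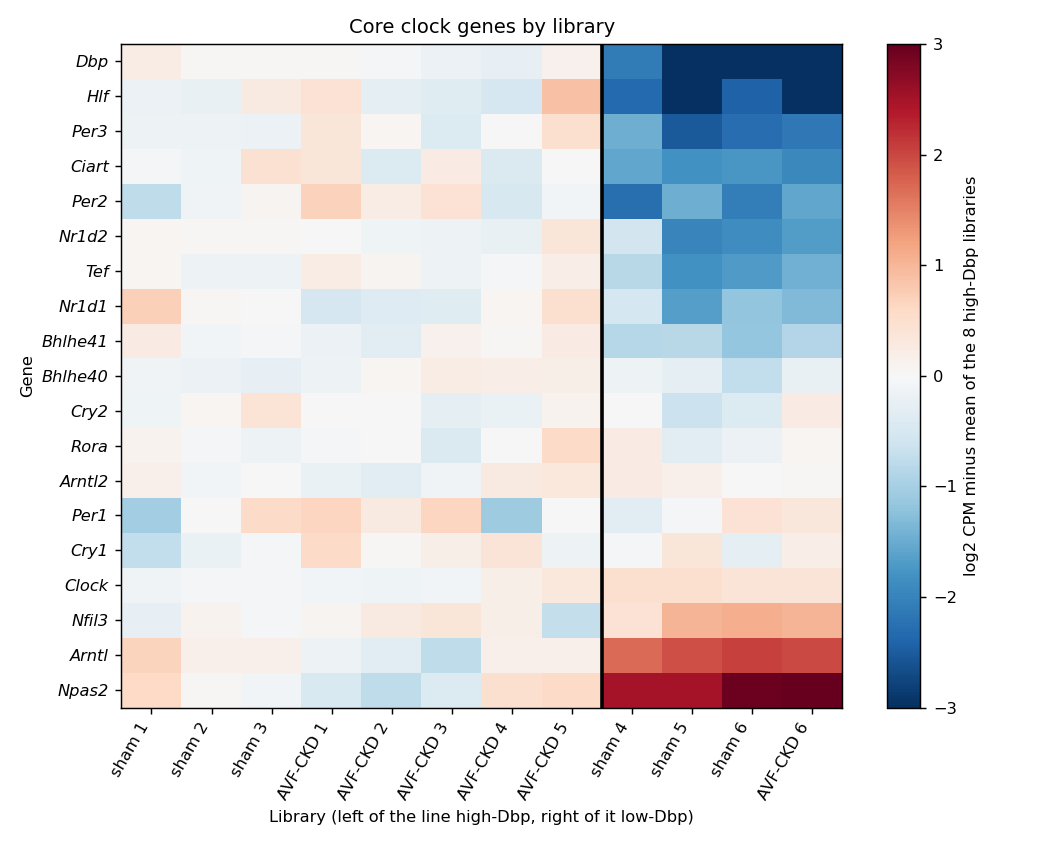
Core clock genes named in the text (rows) in each library (columns) as log2 CPM minus the mean of the 8 high-Dbp libraries, on a colour scale from -3 (blue) to 3 (red), with values beyond it drawn in the end colour. The 4 columns right of the line are the low-Dbp libraries, where Dbp, Hlf, Per3, Ciart, Per2, Nr1d2, Tef, Nr1d1 and Bhlhe41 are blue and Npas2, Arntl and Nfil3 are red, and where sham 4 is paler than the other 3 for Dbp, Tef and Nr1d2.

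The 4 low-Dbp libraries were not alike. Of the 13 core clock genes without overlap, sham 4 was the low-Dbp library nearest to the high-Dbp class for 9, sham 5 for 3, sham 6 for 1 and AVF-CKD 6 for 0. The ratio of Arntl to Dbp counts was 1.85 in sham 4, 6.43 in sham 5, 8.23 in sham 6 and 6.36 in AVF-CKD 6. In the high-Dbp libraries it ran from 0.0883 to 0.180. The ratio holds Dbp, so its separation of the classes is partly fixed by the choice of libraries. Sham 4 thus held an intermediate position for Dbp, Nr1d2 and Tef, at 21.4, 89.2 and 79.4 CPM, and not for Per2, where its 6.30 CPM was the lowest of the 12. The coefficient of variation among the low-Dbp libraries was 68.0% for Dbp and 53.2% for Nr1d2, and 10.5% for Arntl and 11.4% for Ciart. Among the 8 high-Dbp libraries, the coefficient was 10.3% for Dbp, 13.3% for Nr1d2 and 10.8% for Tef, lower than for Per1 at 40.4% and Per2 at 31.5%.

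The proteins that set the speed of the loop were represented by 16 genes for kinases, ubiquitin ligases and partners of the clock proteins. None of the 16 was among the 49, which are 0.258% of all genes, and the median difference was 0.02 on the log2 scale. Csnk1d and Csnk1e, the casein kinases that phosphorylate PER, differed by -0.02 ± 0.06 and 0.02 ± 0.06. The widest was Prkaa2, an AMP-activated kinase subunit abundant in muscle, at 0.91 ± 0.41.

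Genes reported as rhythmic in many tissues divided evenly, 19 positive and 20 negative of 39, with a median of -0.02. Past the threshold were 1 higher and 2 lower, beside 0.121% and 0.137% of all genes. Tspan4, a tetraspanin gene, held 86.5, 78.9, 76.95 and 72.8 CPM in the low-Dbp libraries and 111 to 169 CPM, median 152, in the others, a difference of -0.90 ± 0.11. Herpud1, a gene of endoplasmic reticulum protein breakdown, held 72.0, 83.7, 76.0 and 70.4 CPM against 94.4 to 141 CPM, a difference of -0.65 ± 0.10. Leo1, a subunit of the PAF1 elongation complex, was on the higher side at 18.4, 23.7, 20.2 and 20.6 CPM against 12.5 to 15.0 CPM, a difference of 0.57 ± 0.09. Other well-known outputs overlapped, among them Nampt at 0.01 ± 0.19 and Wee1 at -0.39 ± 0.35. Usp2, counted above in the list of kinases, ligases and partners, overlapped too at 0.28 ± 0.27. None of 20 vascular genes that have been described as clock outputs was past the threshold, with differences from -0.37 to 0.28. Only 0.258% of all genes were past it, so none of 20 says little about these genes. These included Nos3, the endothelial nitric oxide synthase, at -0.20 ± 0.20, and Thbd, thrombomodulin, at 0.28 ± 0.20.

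Outside the clock lists, 20 genes were on the higher and 16 on the lower side of the 49. The 12 with the largest differences in each direction were taken from genes with a mean of at least 5 CPM and with the same order of classes inside sham and inside AVF-CKD. These 24 are genes that differed alongside Dbp in these libraries, and no rhythm was measured in any of them.

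The 12 on the higher side were picked by the size of their difference and were not tested for a shared function. Adamts4, a protease of the proteoglycan aggrecan, held 33.1, 43.0, 33.1 and 57.1 CPM in the low-Dbp libraries and 10.04 to 24.7 CPM, median 17.05, in the others (log2 difference 1.46 ± 0.20). Fbn2, fibrillin 2 of the elastic microfibrils, held 49.6, 74.7, 52.4 and 84.3 CPM against 22.7 to 38.1 CPM, median 29.0 (1.21 ± 0.16). Both genes were separated without overlap, and AVF-CKD 6 held the highest value of each. Adamts3, which trims procollagen, differed by 0.81 ± 0.12, Ncam1, a cell adhesion molecule, by 0.95 ± 0.14, and the neuron navigator genes Nav3 and Nav2, whose products associate with microtubules, by 1.24 ± 0.15 and 1.07 ± 0.13. Nav2 overlapped across the 12 libraries, because its high-Dbp level was 3.18 to 3.60 CPM in sham and 4.60 to 7.19 CPM in AVF-CKD.

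Ppp1r3c, which targets a protein phosphatase to glycogen, had the largest difference of the 12 on this side. Its levels were 66.2, 22.2, 48.8 and 31.9 CPM against 7.11 to 19.1 CPM, median 10.6 (1.77 ± 0.32). Scd2, a desaturase that makes monounsaturated fatty acids, held 254, 232, 288 and 247 CPM against 129 to 193 CPM, median 155 (0.66 ± 0.11). Fosl2, an AP-1 subunit, held 108, 115, 105 and 136 CPM against 59.5 to 96.2 CPM, median 80.7 (0.65 ± 0.10). Peg3, an imprinted zinc-finger gene, differed by 1.06 ± 0.15, Tmeff1, a membrane protein gene with follistatin-like domains, by 1.02 ± 0.18, and Etl4 by 0.76 ± 0.11.

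On the lower side, Sphk2 (ENSMUSG00000057342, chr7:45709467-45718002), a kinase that makes sphingosine 1-phosphate, was the most sharply separated gene of the whole table relative to its spread. It held 38.0, 29.0, 33.4 and 35.1 CPM in the low-Dbp libraries and 61.5 to 69.1 CPM, median 67.2, in the others, a difference of -0.97 ± 0.08. Sphk2 lies tail to tail with Dbp on the opposite strand, and the GENCODE models share 539 exonic bases, 18% of those of Dbp. Because the kit does not mark strand, reads from that stretch cannot be assigned to either gene, and their part in the Sphk2 difference was not tested.

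Other genes on this side had similar caveats or immune roles. Hopx, a small homeodomain protein, and its antisense gene Hopxos differed by -0.78 ± 0.12 and -0.86 ± 0.14 and share 412 exonic bases. Chid1, a chitinase-domain gene that overlaps Tspan4 by 292 exonic bases, differed by -0.40 ± 0.07. H2-Eb2, an MHC class II beta chain gene, had the largest difference of the 24 at -2.40 ± 0.40, with 2.04, 2.495, 1.25 and 1.51 CPM against 2.84 to 25.3 CPM, median 5.03. Its high values were those of sham 1, sham 2 and sham 3 at 12.03, 7.47 and 25.3 CPM. Clec2d, a lectin-like ligand of natural killer cell receptors, overlapped across groups with a difference of -0.50 ± 0.08.

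Lefty1, an antagonist of Nodal signalling, held 3.52, 3.95, 3.57 and 3.20 CPM against 5.60 to 7.04 CPM, median 6.16, a difference of -0.88 ± 0.09. Ldb1, a cofactor of LIM-domain transcription factors, was separated by a small and even step, with 75.3, 69.2, 77.1 and 73.7 CPM against 92.6 to 104 CPM (-0.43 ± 0.06). Nupr1, a stress-induced nuclear protein gene, differed by -0.58 ± 0.10, Gstt2, a glutathione transferase, by -0.62 ± 0.11, and Gpr146, an orphan receptor gene, by -0.44 ± 0.07. Nmb, the peptide neuromedin B, differed by -0.89 ± 0.13 and shares 20.6% of its exonic bases with Sec11a.

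**Figure D3:**
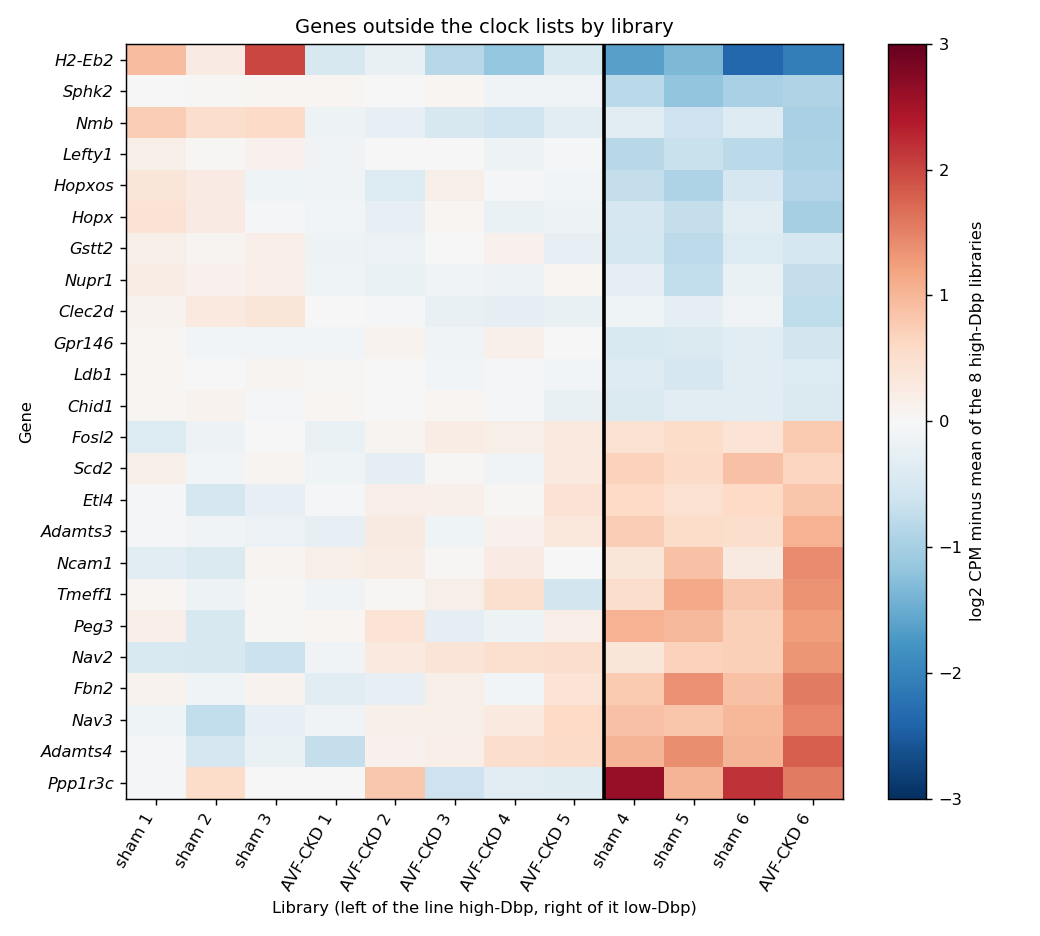
The 24 genes outside the clock lists (rows) in each library (columns) as log2 CPM minus the mean of the 8 high-Dbp libraries, on a colour scale from -3 (blue) to 3 (red). The lower rows from Fosl2 to Ppp1r3c are red and the upper rows from H2-Eb2 to Chid1 are blue in the 4 low-Dbp libraries, and H2-Eb2 and Nmb are also higher in sham 1, sham 2 and sham 3 than in the 5 high-Dbp AVF-CKD libraries.

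The named genes were also followed under other settings. With the skeletal muscle score of each library as a further term, 7 of the 10 core clock genes and 12 of the 24 other named genes stayed past the threshold. With sham 4 and sham 6 left out together, an alternative chosen after seeing the data, 8 of the 10 and 12 of the 24 did. With sham 2 left out, 8 of the 10 and 7 of the 24 did. With the title number as a replicate block, 0 of the 10 and 1 of the 24 did, in sham alone 0 and 0, and in AVF-CKD alone 1 and 0. Without AVF-CKD 6, 0 of the 10 and 1 of the 24, Sphk2, stayed past it, and the log2 differences kept their sign (Dbp -3.08, Arntl 1.56, Fbn2 1.00). Without AVF-CKD 5, 962 genes were past the threshold, among them all 34. The 34 named genes kept their sign in each of the 26 alternatives run. For Dbp, which set the classes, that sign was largely fixed by the choice. The same holds for the 24, which were taken for the same order of classes inside both groups. Only title numbers 4 and 5 hold libraries of both classes, so the replicate block compares the classes within those numbers alone.

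The low-minus-high difference was also taken inside each group, where no library is shared. In sham it compares libraries 4, 5 and 6 with 1, 2 and 3, and in AVF-CKD it compares library 6 with 1 to 5. Dbp has the same sign in both groups by the choice of libraries. Of the 7 other core clock genes with a mean of at least 5 CPM that differed by at least 1 on the log2 scale in sham, all 7 had the same sign in AVF-CKD. For genes outside the clock lists the same held for 218 of 264 (82.6%), and over all 12701 genes of that abundance, whatever their size in sham, for 9273 (73.0%). Dbp differed by -3.08 in sham and -3.53 in AVF-CKD, Arntl by 1.56 and 2.14, Npas2 by 2.44 and 3.19, Per3 by -1.85 and -2.28, and Tef by -1.30 and -1.50. The test of the difference between groups, the product of group and class in edgeR, called 0 of 18965 genes (0%), with 359 at an unadjusted p under 0.05 and 6 called by DESeq2. That test rests on a single low-Dbp AVF-CKD library.

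**Figure D4:**
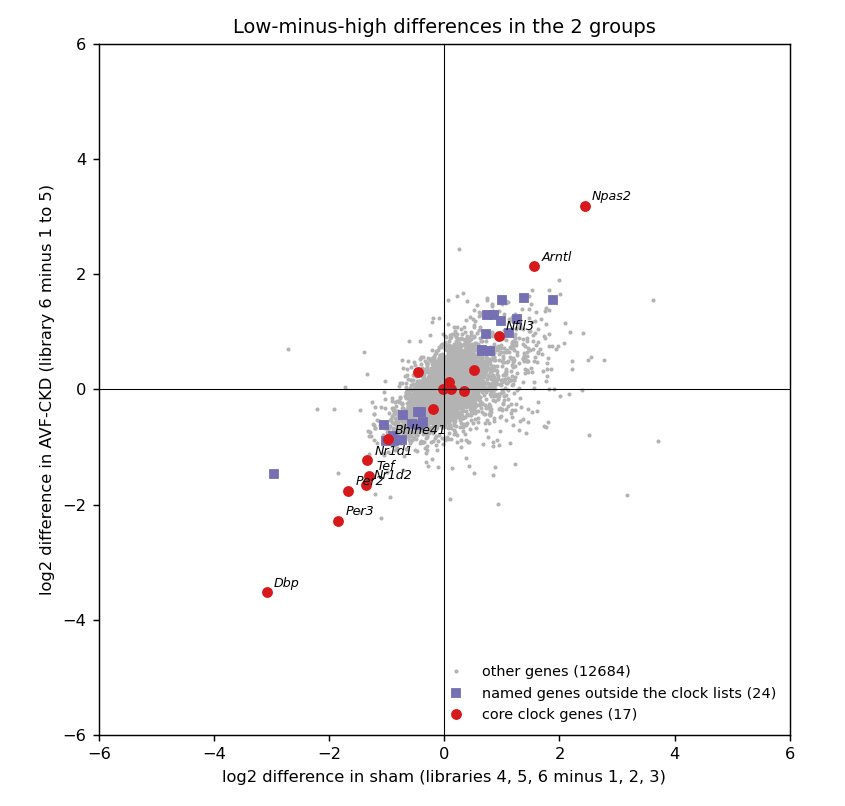
Each point is 1 of 12701 genes, with the log2 difference in sham (libraries 4, 5, 6 minus 1, 2, 3) on the x axis and in AVF-CKD (library 6 minus 1 to 5) on the y axis. Some core clock genes (red) lie far from 0 in both groups, with Dbp at -3.08 and -3.53 and Npas2 at 2.44 and 3.19. Others lie near 0, such as Per1 at 0.08 and 0.13. On the lower side the other named genes (purple) include H2-Eb2 at -2.95 and -1.47 and Chid1 at -0.40 and -0.40.

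Levels that could move together with a change in hormone, temperature or handling were read from 3 lists. None of 20 glucocorticoid-induced genes was past the threshold, beside 0.258% of all genes, with 7 positive and a median of -0.10. Their mean log2 CPM was 5.49 to 6.204 in the low-Dbp and 5.52 to 6.17 in the high-Dbp libraries, and Glul, glutamine synthetase, differed by -0.20 ± 0.17. Of 12 temperature-sensitive genes, 2 were positive, none was past the threshold and the median was -0.24, with the abundant chaperone gene Hspa8 at -0.24 ± 0.12, the heat shock genes Hspa1b at -0.77 ± 0.20 and Hspa1a at -0.68 ± 0.18 and the cold-induced Rbm3 at -0.49 ± 0.16. Of 20 immediate early genes, which respond within minutes to handling, 8 were positive and the median was -0.10, with Klf6, a zinc-finger factor gene, at 0.06 ± 0.14. Their part in the clock differences was not tested.

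Gene lists for tissues and processes were compared in the same way, beside 49.9% of all genes positive and 0.258% past the threshold. No member of the tissue lists was past the threshold. All 19 tested skeletal muscle genes were positive, with a median of 1.05, and their mean log2 CPM was 7.78 to 9.47 in the low-Dbp and 4.81 to 9.36 in the high-Dbp libraries. Of 14 smooth muscle genes 11 were positive with a median of 0.21, and here the ranges did not overlap, at 6.62 to 6.85 and 5.79 to 6.49. The widest members of that list were Pln and Des, which striated muscle also expresses, at 1.66 and 1.02, while Myh11 and Acta2 differed by -0.12 ± 0.26 and 0.16 ± 0.20. Endothelial genes were positive for 8 of 14 with a median of 0.07, lymphatic endothelial genes for 7 of 7 with a median of 0.42 and Pdpn at 0.01 ± 0.10, fibroblast genes for 4 of 14 with a median of -0.20 and Col3a1, a fibrillar collagen gene, at 0.04 ± 0.21. Schwann cell genes were positive for 6 of 10 with Pmp22, a myelin gene, at -0.26 ± 0.12, cardiac muscle genes for 5 of 8 with Hspb7 at 0.65 ± 0.30, and gland and epithelial genes for 7 of 9 with Amy1, salivary amylase, at 0.44 ± 0.31. The median of the gland list was 1.54 inside sham and -0.23 inside AVF-CKD, and sham 6 held its highest mean log2 CPM at 2.28.

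The 8 erythroid genes were all positive with a median of 0.95, but their median was 1.58 inside sham and -0.63 inside AVF-CKD, and Hbb-bs, a beta globin gene, was at 0.72 ± 0.40. All 14 genes of T and natural killer cells were negative, with a median of -0.61, and Nkg7, a granule protein, was at -0.92 ± 0.38 and Thy1 at -0.19 ± 0.12. Of 16 macrophage and monocyte genes 14 were negative with a median of -0.36, with Lyz2, the lysozyme of these cells, at -0.39 ± 0.24. The fat list had 16 of 18 positive, and sham 6 alone carried its range, at 8.28 against 5.39 to 5.75 in the other 3 low-Dbp libraries, and Car3, a carbonic anhydrase abundant in fat and muscle, was at 0.38 ± 0.39. Of the other white cell lists, neutrophils had 8 of 10 positive with Clec4d at -0.17 ± 0.38, B and plasma cells 6 of 10 with Cd22 at -0.02 ± 0.18, and mast cells 3 of 10 with Hdc, the histamine-making enzyme, at -0.04 ± 0.35. The neutrophil median was 0.74 inside sham and -0.24 inside AVF-CKD. The part of these cell types in the differences of single genes was not tested beyond the muscle term above.

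Of the process lists, 18 of 18 cholesterol synthesis genes were positive with a median of 0.47, and none was past the threshold. Hmgcs1, an early enzyme of the pathway, held 82.6, 104, 113 and 72.2 CPM against 46.9 to 89.8 CPM. The median was 0.70 inside sham and 0.08 inside AVF-CKD. Of 25 cell cycle genes 23 were positive with a median of 0.16, with Mki67, a proliferation marker, at 0.48 ± 0.14 and its highest value, 126 CPM, in sham 5. Fibrillar and provisional matrix genes were positive for 17 of 18 with a median of 0.34, and AVF-CKD 6 held the highest mean log2 CPM of the list at 10.7. The matrix median was 0.10 inside sham and 0.62 inside AVF-CKD. Oxidative phosphorylation, with 9 of 28 positive and a median of -0.06, and the interferon response, with 7 of 20 and -0.05, lay near 0, and Atp5b, the most abundant member of the first list, differed by 0.15 ± 0.15. Fatty acid oxidation was positive for 13 of 20 with Cd36, a fatty acid transporter, at 0.43 ± 0.32, hypoxia and glycolysis for 10 of 16 with Aldoa, an aldolase, at 0.40 ± 0.41, and the unfolded protein response for 8 of 18 with Calr, a chaperone of the endoplasmic reticulum, at 0.12 ± 0.10. Herpud1, described above, was the single gene of these process lists past the threshold.

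**Figure D5:**
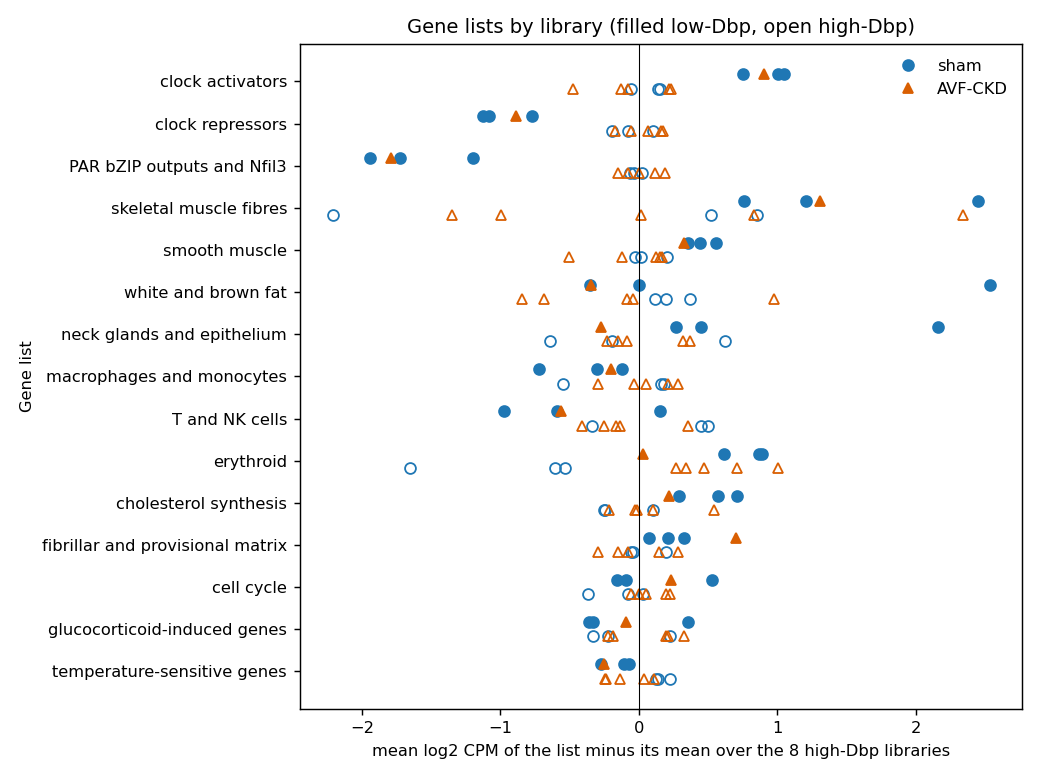
Mean log2 CPM of 15 gene lists in each library minus the mean of the 8 high-Dbp libraries, with circles for sham, triangles for AVF-CKD, filled for low-Dbp and open for high-Dbp. The 3 clock lists and smooth muscle separate the filled from the open points, while skeletal muscle, fat and erythroid genes spread widely within both. The PAR bZIP list includes Dbp, on which the libraries were chosen, so its separation is partly fixed by that choice.

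The study's own question, AVF-CKD against sham, was refitted with the Dbp class as a term, because the low-Dbp libraries were 3 of 6 in sham and 1 of 6 in AVF-CKD. No gene passed an adjusted p of 0.05 in edgeR's quasi-likelihood test, 0 of 18965 (0%), with 2449 genes at an unadjusted p under 0.05 and a lowest adjusted p of 0.183, for Nmb. DESeq2 with the same terms called 204 genes and limma voom with sample weights 0. Without the class term edgeR also called 0 genes, with 1772 at an unadjusted p under 0.05 and a lowest adjusted p of 0.246, for Il6ra. None of the core clock genes passed the threshold for AVF-CKD against sham with the class as a term: Arntl differed by -0.32 (edgeR adjusted p = 0.451), Per2 by 0.40 (0.450), Cry1 by 0.43 (0.363) and Dbp by -0.27 (0.681), as AVF-CKD minus sham on the log2 scale. For Nmb, sham 1, sham 2 and sham 3 held 9.30, 7.98 and 8.22 CPM, the 3 low-Dbp sham libraries 4.45, 3.60 and 4.26 CPM, the 5 high-Dbp AVF-CKD libraries 3.70 to 4.99 CPM and AVF-CKD 6 2.83 CPM. For that gene the sham level thus differed by class, and the mean of all 6 sham libraries mixes both.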

How the data were processed

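RNA for the 12 mouse vein libraries was prepared with the TruSeq v2 kit and sequenced by Illumina HiSeq, per the labels' protocols. The kit marks no strand. The table deposited by the authors gives a whole-number read count, an RPKM value and a gene length (other) for 43346 genes. The submitters' processing notes name TopHat2 2.1.0, featureCounts, edgeR and build GRCm38. The annotation release is not given in the sources used here. RPKM values were printed only where named as the authors' deposited RPKM. Of the gene identifiers, 42462 were found in GENCODE M21, which gave the exonic overlaps. Promoters came from the RefSeq table.

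Groups and numbers came from the sample titles. Dbp CPM (count over column sum) set the class. Counts were filtered with filterByExpr by group (18965 genes kept), scaled by TMM and fitted with edgeR 4.0.16 in R 4.3.3 (glmQLFit and glmQLFTest, terms group and class, then their product), with Benjamini-Hochberg adjustment and a threshold of 0.05. Printed CPM use TMM-scaled library sizes, and list scores are means of log2 CPM with a prior count of 2. Genes were named by rule: all members of 3 core clock lists, the 12 largest per direction outside the clock, immunoglobulin, T cell receptor and major urinary protein genes with a mean CPM of at least 5 and the same order of classes in both groups, and the most abundant member of each other list. A few list members were named as examples after their values were seen. The members and the 32 gene lists were chosen with earlier results of these data known. The fit was tested on simulated data. Alternatives were DESeq2 1.42.0, limma 3.58.1 (voom), other scalings and filters, a replicate block, a muscle score, and each library left out. Deviations of same-numbered sham and AVF-CKD libraries from their group means correlated at -0.109 to 0.277, and pairing by number was not tested. Every pair of libraries differed by more than sampling noise. The table had 0 columns of other series. The values of a few genes that these rules would name are not reported here.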

Additional observations from a re-analysis of the deposited data

Results flagged for a closer look

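Within each group of 6, a library was singled out when its gap to the nearest other library took an unusually large share of the group's range by Dixon's test. That held for 23 of 152 tests over the named genes and lists. Chance alone gives about 1 in 20. That rate does not apply to Dbp, to the list that holds it or to the genes chosen for a difference between the classes. AVF-CKD 6 accounts for 17 of them, as the single low-Dbp library of its group, chosen on Dbp. In it, Arntl stood at 48.6 CPM against 7.196 to 13.6 in the other AVF-CKD libraries, Npas2 at 27.2, Dbp at 7.65 and Tef at 52.4 CPM, and the mean log2 CPM was 4.28 for the clock repressors and 3.36 for the PAR bZIP genes with Nfil3.

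The genes named outside the clock lists were chosen for the same order of classes inside AVF-CKD, so that this library lies at an end of its group's range for each by that choice. It was highest for Adamts4 at 57.1, Nav3 at 9.996, Fbn2 at 84.3, Nav2 at 12.3, Peg3 at 86.7, Ncam1 at 49.4 and Adamts3 at 25.6 CPM. It was lowest for Sphk2 at 35.1, Lefty1 at 3.20, Hopx at 9.63 and Ldb1 at 73.7 CPM.

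Sham 6 stood apart in 4 tests, with Bhlhe40 at 58.9 CPM, where the other 5 sham libraries held 81.2 to 91.6, and with mean log2 CPM of 8.28 for fat cell genes, 6.66 for fatty acid oxidation and 5.16 for the widely rhythmic outputs. Of the last list, Gpd1, Pdk4 and Ces1d are genes that fat also expresses. Sham 4 had the lowest score of B and plasma cell genes of its group at -0.29, and AVF-CKD 5 the lowest of hypoxia and glycolysis genes at 5.42.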

How the results depend on the processing

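The count of genes that differ between low-Dbp and high-Dbp libraries was 49. It stayed within 1.5 times of that with other scalings, other filters and ribosomal and mitochondrial copies removed. Dbp as a continuous term gave 37, of which 29 were shared with the 49, but that fit reuses the Dbp values that set the classes. With sham 4 and sham 6 left out together the count was 48, of which 26 were shared. It moved to 987 with DESeq2 (48 shared), 2600 with limma voom (49 shared), 31 without the group term, 26 with the muscle score, 0 in sham alone and 2 in AVF-CKD alone, where the lone low-Dbp library is assumed to vary like the others. With the title number as a replicate block it was 157, of which 149 were higher, 8 lower and 1 shared. That fit compares the classes only within numbers 4 and 5, which alone hold libraries of both. Leaving out 1 library gave 1 (AVF-CKD 6) to 962 (AVF-CKD 5), and sham 2, 3, 4 and 5 and AVF-CKD 1 and 4 gave 17, 30, 26, 28, 28 and 32. The cause was not tested. Correlations of same-numbered libraries across groups ran from -0.109 to 0.277. Differently numbered libraries were not correlated for comparison, so whether the numbers pair the libraries was not tested. AVF-CKD against sham called 0 genes in each edgeR alternative, the replicate block included, 0 with limma voom (3388 at an unadjusted p under 0.05) and 204 with DESeq2. The product of group and class called 6 genes with DESeq2, 0 with limma voom (585 at an unadjusted p under 0.05) and 0 to 1 when a library was left out (1 without sham 1), and could not be fitted without AVF-CKD 6. Of 1144 log2 differences of 44 named genes under the alternatives, 816 kept their sign and side of the threshold, 312 lost the threshold, 11 gained it, 5 moved and 0 reversed. For Dbp and the genes named outside the clock lists, the sign was largely fixed by how libraries and genes were chosen. A single low-Dbp AVF-CKD library limits everything said of that group.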

Other observations

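Per1, the core clock gene that is also a fast glucocorticoid target, overlapped between the classes, and so did Tsc22d3 and Fkbp5, 2 other glucocorticoid targets. Most genes overlapped, since 0.627% of all genes lay above and 0.886% below without overlap. Other core clock genes, among them Cry1, Cry2, Rora, Arntl2 and Bhlhe40, overlapped too, and a part of glucocorticoids was not tested. Tsc22d3 held 231 ± 81.5 CPM (SD, n = 4) in the low-Dbp and 282 ± 129 CPM (SD, n = 8) in the high-Dbp libraries, and Fkbp5 held 53.2 ± 12.4 and 78.0 ± 26.1 CPM. Neither difference was past the threshold.

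Other genes of the 49 lie outside the named 24 and were chosen for mention after their values were seen. Egfl6, a matrix protein gene, held 3.50 CPM on average in the low-Dbp and 1.06 CPM in the high-Dbp libraries. Esrrg, an orphan nuclear receptor gene, held 1.38 and 0.530 CPM, and Vwc2, a bone morphogenetic protein antagonist gene, held 0.228 and 1.22 CPM. Homer1 and Acsl3, which encodes an acyl-CoA synthetase, were higher by 0.47 ± 0.08 and 0.52 ± 0.09 on the log2 scale, and Uvrag, an autophagy gene with 17.6% of its exonic bases shared with another model, was lower with a difference of -0.38 ± 0.05.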
